A study of Mus musculus with 11 samples.

Results

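The perineuronal net is a lattice of extracellular matrix around neurons, and the genes described here encode its main core proteins: the lecticans Acan, Bcan, Ncan and Vcan, the link proteins Hapln1, Hapln2 and Hapln4, the tenascins Tnr and Tnc, and the receptor phosphatase Ptprz1. They were chosen by name as known net components, with earlier results of these data known. Their 10 Ensembl IDs were found among the 48709 genes of the count tables. Hapln2 had too few reads to be tested, which left 9 genes with a test.

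Messenger RNA was sequenced from primary hippocampal neurons, which were dissociated from the hippocampi of CD1 mouse embryos on embryonic day 17 and grown in culture, to learn which transcripts respond to miR-181a-5p. Lipid nanoparticles with a synthetic mimic of miR-181a-5p were given to 5 samples (mimic) on day 10 in vitro (DIV10). On the same day 6 samples (control) received nanoparticles with a negative control RNA, which the study calls scrambled. RNA was taken after 48 hours, on day 12 in vitro, and ApoE4, a lipoprotein component, was added with the particles in both groups. Hippocampi of the embryos were pooled before plating, and no source says whether the samples were separate cultures, so p-values measure the spread between these samples, which may be technical. These are young cultures of embryonic cells, which contain neurons and glia, and not adult tissue.

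In the net, lecticans bind the sugar polymer hyaluronan on the cell surface, link proteins hold that bond in place, and tenascins crosslink the far ends of the lecticans. Lecticans carry chondroitin sulfate chains, which Ptprz1 also carries, and Ptprz1 binds tenascins and contactin on the neuronal membrane. In the hippocampus the nets form late, most densely around parvalbumin interneurons, and they are known for stabilising synapses and closing periods of plasticity.

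A microRNA pairs through its seed, bases 2 to 8 from its 5′ end, mostly with sites in the untranslated 3′ end (3′ UTR) of a messenger RNA. Both oligonucleotides are shown so that the matches described with the genes can be read against them; capitals mark the seed. The mimic was identical over its 23 bases to the mature mmu-miR-181a-5p that RefSeq (GRCm38.p6) lists for both Mir181a-1 and Mir181a-2.
Mimic of miR-181a-5p, 5′ to 3′: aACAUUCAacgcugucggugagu
Negative control RNA, 5′ to 3′: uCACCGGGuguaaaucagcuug

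Reads counted on genes came to between 17287168 and 48091231 per sample, with control replicate 1 the deepest and control replicate 5 the shallowest. A count of 0 allows up to 3 counts, or 0.0624 CPM in the deepest and 0.174 CPM in the shallowest sample, and these limits cover counting error only. CPM, a count scaled to a common library size, used library sizes scaled by TMM, a normalization that sets aside the genes that differ most. The cultures expressed all 10 neuron markers, from 22.7 CPM per kb for Rbfox3 to 441 for Tubb3, and astrocyte markers such as Slc1a2 at 173 CPM per kb. Markers of mature oligodendrocytes and microglia were near the floor, with Opalin at 0.0128 and P2ry12 at 0.0978 CPM per kb, and the interneuron marker Pvalb was at 0.753 CPM per kb. By edgeR's quasi-likelihood test with Benjamini-Hochberg adjustment, 495 of 17365 tested genes were called (adjusted p under 0.05), of which 62% were lower in mimic, or 49.1% with upper-quartile scaling. In bulk RNA of this kind, fewer cells of a type and less RNA per cell cannot be told apart.

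The levels of the net genes spanned over 3 orders of magnitude. They are given here as CPM per kb of exon, the scale on which genes can be set beside each other. Ncan stood first with a mean of 144.4 CPM per kb over all 11 samples (133.6 to 154.3), which was rank 183 among the 17312 tested genes with a known length. Ptprz1 followed at 68.5, Bcan at 48.9 and Hapln1 at 19.5 CPM per kb, and the ranges of these 4 genes over the samples did not overlap with one another. Tnr at 9.20 and Tnc at 7.52 CPM per kb had overlapping ranges, although Tnr was above Tnc in 11 of 11 samples. Vcan at 3.32 and Acan at 3.28 CPM per kb could not be ordered, with Vcan higher in 7 of 11 samples. Hapln4 lay below them at 1.20 CPM per kb, and Hapln2, which is known from myelinated axons, came last at 0.0818 CPM per kb. The order of the group means was the same in control and mimic samples but for Vcan and Acan, which changed places.

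**Figure D1:**
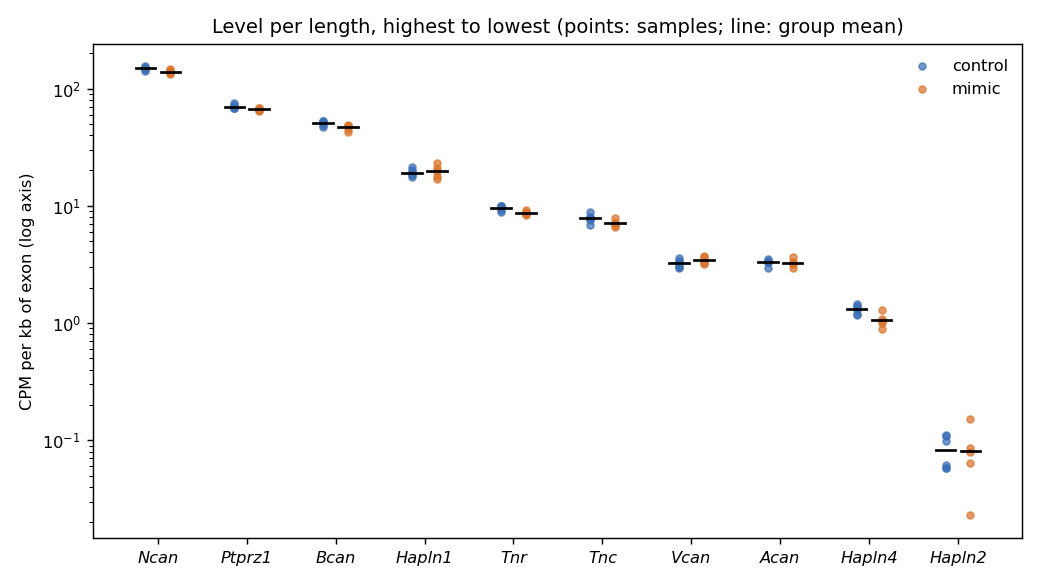
Level of each net gene in CPM per kb of exon on a log axis, ordered from the highest mean to the lowest, with a point for each of 6 control (blue) and 5 mimic (orange) samples and a black line at each group mean. Ncan leads at a mean of 144.4, Tnr and Tnc lie close together, Vcan and Acan coincide, and Hapln2 lies far below the rest at 0.0818.

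Among the lecticans and the link proteins 1 gene made up most of the message, while Tnr and Tnc lay closer together. Per length, Ncan was 72.1% ± 0.791 (SD, n = 6) of the lecticans' summed level in control and 72.4% ± 0.812 (SD, n = 5) in mimic samples. Bcan held 24.7% ± 0.891 and 24.1% ± 0.862 of that sum in control and mimic, so the predominant lecticans kept nearly the same proportion. Vcan held 1.57% ± 0.119 in control and 1.78% ± 0.116 in mimic samples, with ranges of 1.42 to 1.70 and 1.65 to 1.95 that overlapped. Among the link proteins Hapln1, Hapln2 and Hapln4, Hapln1 held 93.2% ± 0.800 in control and 94.5% ± 1.19 in mimic samples. Hapln3, at a mean of 0.761 CPM per kb, was not counted in that sum. Hapln4 held 6.42% ± 0.799 in control and 5.13% ± 1.17 in mimic samples. Tnr made up 55.1% ± 2.67 of the tenascin level in control and 55.0% ± 2.34 in mimic samples. These shares are descriptions without a test. The summed CPM of all 10 genes was 2562 to 2733 in control and 2433 to 2549 in mimic samples, a sum made up largely of Ncan and Ptprz1.

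Of the 9 tested net genes, 2 were called, Tnr and Hapln4, both lower in mimic. For comparison, 2.85% of all tested genes were called, 1.77% lower and 1.08% higher in mimic, so with 9 genes the count rests on very few calls. 7 of the 9 had a log2 fold change below 0, against 50.1% of all tested genes, and the median was -0.087, against -0.00015 over all tested genes. An unadjusted p under 0.05 was reached by 6 of the 9 and by 15.7% of all genes. In 0 of the 9 were the control and mimic samples fully apart, as they were for 2.89% of all tested genes. Because the net genes were chosen with earlier results of these data known, these comparisons describe the set and do not test it.

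**Figure D2:**
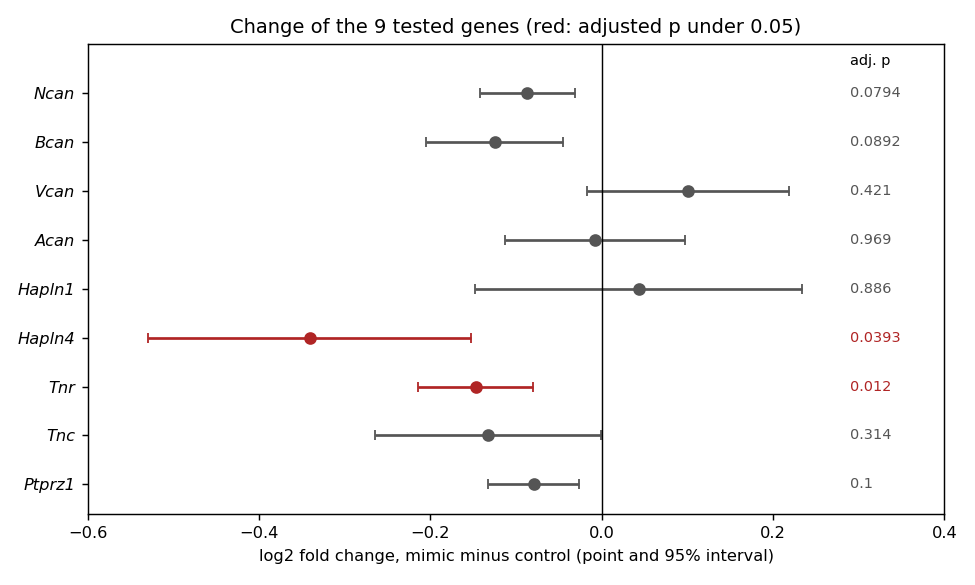
Log2 fold change, mimic minus control, of the 9 tested net genes with 95% intervals from edgeR, grouped as lecticans, link proteins, tenascins and Ptprz1, with adjusted p at the right and genes with adjusted p under 0.05 in red. Tnr at -0.15 and Hapln4 at -0.34 are the red points, the intervals of Ncan, Bcan, Tnc and Ptprz1 also end below 0, and those of Vcan, Acan and Hapln1 include 0.

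Tnr encodes tenascin-R, a trimer made mainly by the oligodendrocyte lineage and some interneurons, which binds the C-terminal ends of the lecticans and gathers them into the lattice. The gene lies at chr1:159523769-159931729 on the plus strand (GRCm38). Its level in the 6 control samples ran from 115 CPM over a median of 126 to 129 CPM. The 5 mimic samples, replicates 1 to 5, had 112, 108, 118, 114 and 108 CPM. Thus 4 of 5 mimic samples were below every control sample, and only mimic replicate 3 reached into the control range, above control replicate 2. The mean went from 123.9 ± 5.79 (SD, n = 6) to 111.9 ± 4.21 CPM (SD, n = 5), and Tnr fell by 0.15 on the log2 scale (SE 0.033), or by 9.70%, with an edgeR adjusted p of 0.0120. The 95% interval of the change ran from -13.8% to -5.43%. Without mimic replicate 2 the adjusted p was 0.0516 at a log2 fold change of -0.14, and over all 19 alternatives it ranged from 0.000158 to 0.0516, with a call in 18 of them.

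Hapln4 encodes brain link protein 2, made by neurons, which fixes lecticans to hyaluronan at the cell body and at inhibitory synapses. The gene lies at chr8:70083457-70090862 on the plus strand. It was the lowest of the tested members, with 73 to 263 reads per sample. Control samples ran from 4.61 CPM over a median of 5.20 to 5.72 CPM, and mimic replicates 1 to 5 had 3.90, 4.22, 5.03, 4.06 and 3.46 CPM. As with Tnr, 4 of 5 mimic samples lay below every control sample, and the exception was again mimic replicate 3. Means of 5.16 ± 0.449 (SD, n = 6) and 4.13 ± 0.575 CPM (SD, n = 5) gave a log2 fold change of -0.34 (SE 0.092), a decrease of 21.0% with a 95% interval from -30.7% to -10.0%, and an edgeR adjusted p of 0.0393. This was the change of greatest size among the 9 genes, and the less stable of the 2 calls. Hapln4 was no longer called in 11 of 19 alternatives, always at the same direction, with adjusted p up to 0.132. These included DESeq2 (adjusted p = 0.0511), the fit with 1 surrogate variable (0.123), the authors' normalized table (0.0697) and 7 fits with 1 sample left out, namely control replicate 1 (0.125), 4 (0.0770) or 6 (0.0880) and mimic replicate 1 (0.0853), 2 (0.0882), 4 (0.0993) or 5 (0.110).

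The 3′ UTRs of these genes were searched on the transcript strand for words that pair with the mimic's seed, and the matches in the members are printed because they link the sequence of the mimic to the individual genes. TGAATGT pairs with bases 2 to 8, GAATGTA with bases 2 to 7 followed by an A, and GAATGT, which both longer words contain, with bases 2 to 7. Of the 14481 tested genes with an annotated 3′ UTR, 18.5% held TGAATGT, 12.8% GAATGTA and 36.7% GAATGT in their longest one. Among the 10 net genes TGAATGT was found in 3, Hapln4, Tnr and Vcan, with a pair of sites in Hapln4. Each site is shown with flanking bases, 5′ to 3′ on the transcript, with the paired letters in capitals.
Hapln4, chr8:70089291-70089314, plus strand: gagtagactcgctTGAATGTcccg
Hapln4, chr8:70090477-70090500, plus strand: ttgttttttctggTGAATGTgaaa
Tnr, chr1:159930511-159930534, plus strand: tgcaaatatcctgTGAATGTctag
Vcan, chr13:89656276-89656299, minus strand: tttataaaaaattTGAATGTtcat
Ptprz1, chr6:23004590-23004613, plus strand: aaaactaaccctggGAATGTAtta
Hapln1, chr13:89611351-89611374, plus strand: tgtattacaaaaaaGAATGTtttc

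The sites of Hapln4 start at positions 783 and 1969 of a 3′ UTR of 2341 bases, and that of Tnr at position 6311 of 7516 bases, a region far longer than the median of 1201 bases over the tested genes. Length raises the number of words that any search finds. Vcan's site starts at position 945 of 1919 bases. The GAATGTA of Ptprz1 lies near the end of the 3′ UTR of a short transcript that ends inside the gene, and Hapln1 held the 6-letter word alone. Neither word was in the longest 3′ UTR of Acan, Bcan, Ncan, Tnc or Hapln2, which were 823, 341, 3235, 648 and 481 bases long. Of the 3 genes with TGAATGT, Tnr and Hapln4 were called lower and Vcan was above 0. Vcan is also the sole net gene that the study lists as a predicted target of miR-181a-5p. A match is a description of letters, not a measured site of binding.

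Vcan encodes versican, a large lectican that oligodendrocyte precursors and early neural tissue produce. Control samples had 42.2 CPM at the lowest, 46.8 at the median and 51.8 at the highest. Mimic replicates 1 to 5 had 47.3, 49.0, 45.6, 54.3 and 52.5 CPM. Mimic replicates 4 and 5 were above every control sample and the other 3 were within the control range. The means were 46.7 ± 3.72 (SD, n = 6) and 49.8 ± 3.60 CPM (SD, n = 5), with a log2 fold change of 0.10 (SE 0.056) and an edgeR adjusted p of 0.421. The 95% interval, from -1.20% to 16.4%, includes 0 and does not reach the decrease measured for Tnr. The value was above 0 in all 19 alternatives.

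Ncan encodes neurocan, the lectican of the developing brain that neurons and astrocytes secrete, and was the most abundant member. Control samples ran from 1008 CPM over a median of 1075 to 1110.1 CPM, and mimic replicates 1 to 5 had 961, 1030.3, 984, 1060.1 and 988 CPM. 3 of 5 mimic samples were below every control sample, while mimic replicates 2 and 4 were not. From 1067 ± 36.1 (SD, n = 6) to 1005 ± 39.9 CPM (SD, n = 5) the log2 fold change was -0.087 (SE 0.027), or -5.86% with a 95% interval of -9.41% to -2.17%. It missed the threshold with an edgeR adjusted p of 0.0794. It passed without control replicate 2 (adjusted p = 0.0414), without mimic replicate 4 (0.0478) and without the count filter (0.0165), and the range over alternatives reached 0.212.

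Bcan encodes brevican, a short lectican of astrocytes and oligodendrocyte precursors that surrounds synapses. Control samples had 189 CPM at the lowest, 209.5 at the median and 216 at the highest, and mimic replicates 1 to 5 had 185, 196, 194, 200.1 and 172 CPM. Control replicate 2 was the low control, and the other 5 control samples had 199.8 CPM or more, while mimic replicate 5 was the lowest of all samples. The log2 fold change was -0.12 (SE 0.038), from 206 ± 10.1 (SD, n = 6) to 189 ± 11.4 CPM (SD, n = 5), with an edgeR adjusted p of 0.0892. Without control replicate 2 the log2 fold change was -0.14 with an adjusted p of 0.0203. Without mimic replicate 5, the lowest sample, it was -0.089 with an adjusted p of 0.132, and over the alternatives the adjusted p ranged from 0.000953 without the count filter to 0.194.

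Acan encodes aggrecan, the lectican that defines mature nets around parvalbumin neurons. Its control samples ran from 21.8 over a median of 24.9 to 26.2 CPM, and mimic replicates 1 to 5 had 23.9, 24.2, 24.6, 27.5 and 22.0 CPM, so the groups covered nearly the same range. The means of 24.6 ± 1.46 (SD, n = 6) and 24.4 ± 1.98 CPM (SD, n = 5) gave a log2 fold change of -0.0076 (SE 0.051) with an edgeR adjusted p of 0.969. The sign depended on the scaling, since upper-quartile scaling gave 0.0030. The 95% interval of the change was -7.52% to 6.996%, which does not reach the point value of Hapln4 or of Tnr.

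Hapln1 encodes the cartilage link protein, the main neuronal link protein needed for compact nets. Control samples ran from 105 over a median of 112 to 125 CPM, and mimic replicates 1 to 5 had 125, 118, 105, 99.2 and 137 CPM. The mimic samples thus spread on both sides of the controls, with replicate 5 above and replicate 4 below all of them. The coefficient of variation was 13.0% in mimic and 6.76% in control samples. The log2 fold change was 0.043 (SE 0.085) with an edgeR adjusted p of 0.886 and a 95% interval of -9.76% to 17.6%, and without mimic replicate 5 it was -0.019. Hapln2, the link protein of the nodes of Ranvier, had between 1 and 9 reads per sample. Its control samples had 0.138 to 0.261 CPM and its mimic samples 0.0541 to 0.358 CPM, values near the floor at which no difference was detectable.

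Tnc encodes tenascin-C, the tenascin of astrocytes and neural progenitors. Control samples had 53.3 CPM at the lowest, 61.4 at the median and 68.5 at the highest, and mimic replicates 1 to 5 had 50.9, 61.4, 53.1, 55.5 and 55.7 CPM. Mimic replicates 1 and 3 were below every control sample, but control replicate 1 lay below the other 3 mimic samples. The log2 fold change of -0.13 (SE 0.061) was close in size to that of Tnr, but with a spread nearly as wide as the difference the edgeR adjusted p was 0.314, and it passed only without the count filter (0.0109). The means were 61.0 ± 5.05 (SD, n = 6) and 55.3 ± 3.91 CPM (SD, n = 5).

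Ptprz1 encodes a receptor tyrosine phosphatase of astrocytes and precursors, whose secreted form is the proteoglycan phosphacan. Control samples ran from 968 over a median of 982 to 1065 CPM, and mimic replicates 1 to 5 had 925, 933, 972, 934 and 969 CPM. 3 of 5 mimic samples were below every control sample, and 4 of 6 control samples, with replicates 3 and 5 the exceptions, were above every mimic sample. The difference from 999.7 ± 39.4 (SD, n = 6) to 946 ± 22.3 CPM (SD, n = 5) was small, with a log2 fold change of -0.079 (SE 0.026). Its edgeR adjusted p was 0.100, with a range of 0.0391 without the count filter to 0.384 over the alternatives. The files give 1 count per gene, so the receptor and phosphacan could not be separated.

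**Figure D3:**
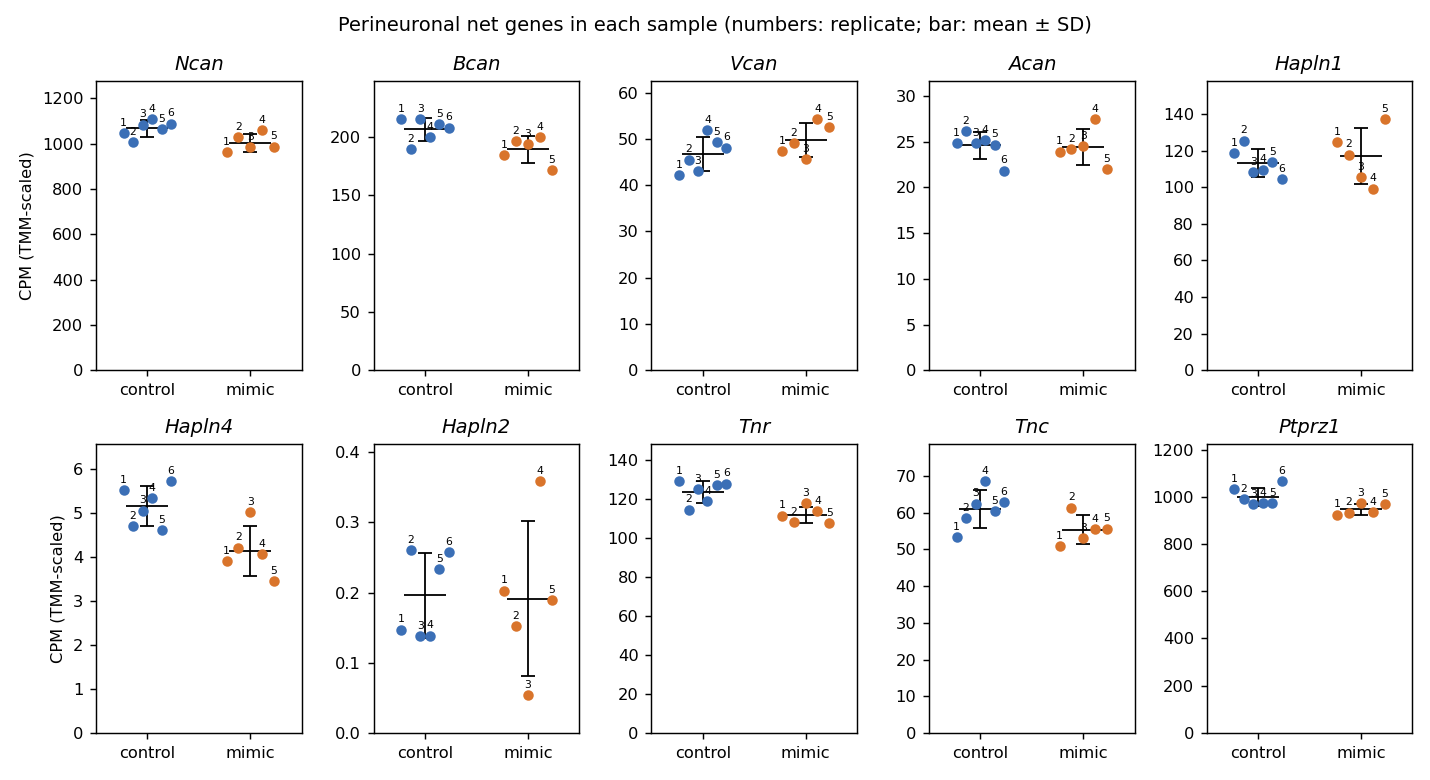
CPM of each of the 10 net genes in every sample, with control in blue and mimic in orange, the replicate number above each point and black bars for the mean ± SD of 6 control and 5 mimic samples; each axis starts at 0 and has its own scale. The mimic points of Tnr and Hapln4 sit low with only replicate 3 inside the control range, Hapln1 is widely spread in mimic, and Hapln2 stays below 0.4 CPM.

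Low values did not come from a single mimic sample. Over the 10 genes, mimic replicate 1 held the lowest value of all 11 samples for 3 genes (Ncan, Tnc and Ptprz1) and mimic replicate 5 for 3 others (Bcan, Hapln4 and Tnr). Mimic replicate 5 also had the highest Hapln1 value. For Tnr, Hapln4, Ncan, Bcan, Tnc and Ptprz1, 5 of 5 mimic samples lay below the control median.

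**Figure D4:**
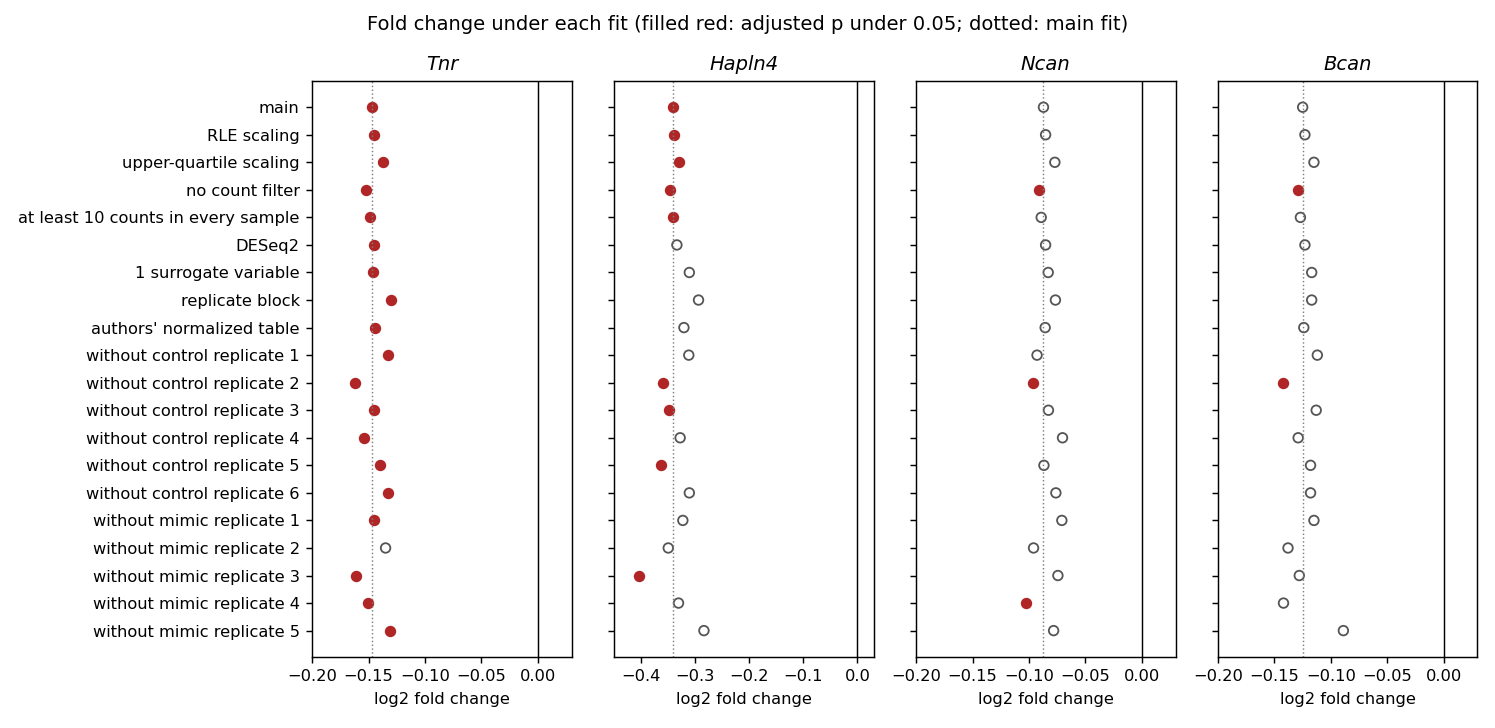
Log2 fold change, mimic minus control, of Tnr, Hapln4, Ncan and Bcan on the horizontal axes (scales differ) in the main fit and in each of 19 alternatives, listed on the vertical axis, with filled red points where the adjusted p was under 0.05 and a dotted line at the main value. Every point is below 0, Tnr loses its call only without mimic replicate 2, and Hapln4 loses it in 11 alternatives.

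Lectican and link protein genes sit side by side in the mouse genome, so their log2 fold changes are given in pairs. Ncan and Hapln4 lie 2.22 kb apart on opposite strands of chromosome 8, with no gene wholly between them, and had log2 fold changes of -0.087 and -0.34. Vcan and Hapln1, 43.7 kb apart on chromosome 13, had 0.10 and 0.043. Bcan lies 21.5 kb from Hapln2, which was too low to test. Acan, with a log2 fold change of -0.0076, adjoins Hapln3, with -0.17 (edgeR adjusted p = 0.556). These are values side by side, without a test of the difference.

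The genes that build, hold and cut the net were read from 5 lists of 82 genes, of which 77 were tested. 6 were called, 3 lower and 3 higher in mimic, and the median log2 fold change was 0.0021. The called genes were 7.79% of those tested, against 2.85% of all tested genes. Over all tested genes, 15.7% were at an unadjusted p under 0.05 and 2.89% had the groups fully apart. The lists were chosen with earlier results of these data known, so these shares are not a test. The other net and family genes, 13 in number with 12 tested, had 1 called lower and 0 higher by edgeR, 2 called by DESeq2 and 5 at an unadjusted p under 0.05. The gene called by edgeR was Nptx1, the secreted pentraxin that gathers AMPA receptors, which went from 369 CPM (SD 10.2) in control to 339.9 CPM (SD 15.3) in mimic samples. Its log2 fold change was -0.12 (SE 0.028) with an edgeR adjusted p of 0.0163. The most abundant uncalled genes of the list were its receptor Nptxr (-0.063, adjusted p = 0.195), Crtac1 (-0.033, 0.728) and the neuronal proteoglycan Cspg5 (-0.021, 0.787). Chosen after their values were seen, the small proteoglycans Dcn (0.53, 0.159) and Bgn (0.39, 0.122) had every mimic sample above every control sample, and the precursor proteoglycan Cspg4 had a log2 fold change of -0.40 (0.0782). Hyaluronan, the backbone of the net, is made by Has enzymes and broken down by hyaluronidases. Of 9 genes of its synthesis, turnover and reception 7 were tested and 0 called by edgeR or DESeq2, with 2 at an unadjusted p under 0.05. Among them were Cemip (log2 fold change 0.072, adjusted p = 0.308), the receptor Cd44 (-0.063, 0.527) and Hyal2 (-0.0013, 0.997), while Has1 and Has2 were too low to test.

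Chondroitin sulfate chains are built on the lectican cores by a series of Golgi enzymes, for which 20 of 21 genes were tested. Xylt1, the xylosyltransferase that starts the chain, fell from 84.1 CPM (SD 5.13) to 72.6 CPM (SD 3.00), that is, by 0.21 on the log2 scale (SE 0.038, edgeR adjusted p = 0.00237). Dse, the epimerase that turns chondroitin into dermatan sulfate, rose from 9.26 ± 0.904 to 10.96 ± 0.888 CPM, a log2 fold change of 0.25 (SE 0.069) with an adjusted p of 0.0489. The other 18 were not called, including the sulfotransferase Chst11 (-0.016, adjusted p = 0.876), the polymerising factor Chpf (0.049, 0.777) and the linkage enzyme B3gat3 (0.070, 0.333). The longest 3′ UTR of Xylt1 held TGAATGTA, which pairs with the whole seed and an A and was in 6% of the tested 3′ UTRs. Of the 6 called genes of the 5 lists, Xylt1 and Plxna4 held TGAATGT and Nptx1, Dse, Mdk and Itgb1 did not, and of the 71 genes tested and not called 15 held it. Nptx1 held CCCGGTG, which pairs with bases 2 to 8 of the negative control RNA and was in 2.87% of the tested 3′ UTRs.

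Of 16 proteases and inhibitors that cut or spare lecticans, 15 were tested and 0 called by edgeR or DESeq2, with 5 at an unadjusted p under 0.05 and a median log2 fold change of 0.055. Timp2, an inhibitor of metalloproteases (0.012, adjusted p = 0.898), Plat, the tissue plasminogen activator (0.13, 0.0562), and the aggrecanase Adamts1 (-0.017, 0.883) were the most abundant. Of 23 receptors and surface partners, all tested, 1 was called lower and 2 higher. Mdk, the growth factor midkine that binds Ptprz1 and its sulfate chains, rose from 49.0 CPM (SD 4.00) to 57.6 CPM (SD 1.64), by 0.24 on the log2 scale (SE 0.044, edgeR adjusted p = 0.00448), and all mimic samples were above all control samples. Itgb1, the integrin beta chain that binds matrix, rose by 0.11 (SE 0.030, adjusted p = 0.0353) and Plxna4, a semaphorin receptor, had a log2 fold change of -0.12 (SE 0.027, adjusted p = 0.0151). The related growth factor Ptn (0.032, 0.846), the syndecan Sdc3 (0.019, 0.852) and Cntn1, a contactin that binds Ptprz1 and Tnr (-0.062, 0.152), were not called.

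**Figure D5:**
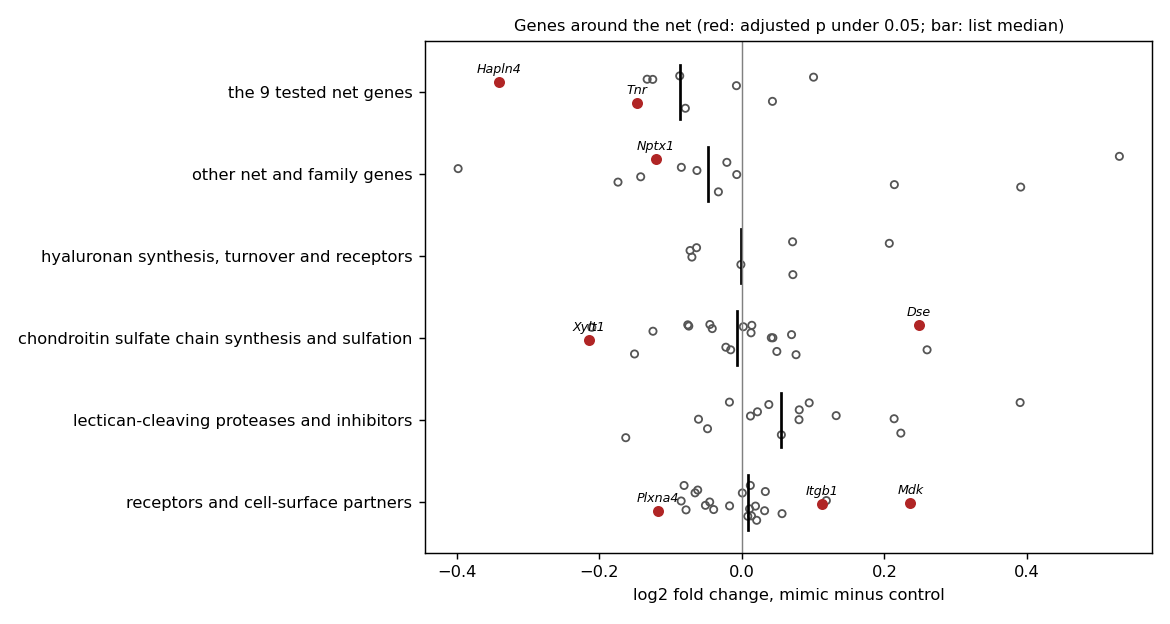
Log2 fold change, mimic minus control, of the 9 tested net genes and of the tested genes in 5 lists around the net, a point per gene with random vertical offset, red and named where the adjusted p was under 0.05 and with a black bar at the median of each list. The net genes' median lies at -0.087, the medians of the other lists lie between -0.048 and 0.055, and 6 genes outside the net core are red.

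Markers of the cell types that such cultures can hold are given beside these values. The summed CPM of 10 astrocyte markers was 4950 to 5390 in control and 4543 to 4860 in mimic samples, without overlap, with 8 of 10 below 0 and 1, the glutamate transporter Slc1a2, called lower (log2 fold change -0.18, SE 0.024). Without Slc1a2 the sum was 2586 to 2876 in control and 2431 to 2702 in mimic samples, which overlapped. Of the 10 astrocyte markers, DESeq2 called 2, and 6 were at an unadjusted p under 0.05, all of them lower. Of 10 oligodendrocyte precursor markers, 9 were tested and 8 were below 0, with 0 called by edgeR, 1 by DESeq2 and 2 at an unadjusted p under 0.05. Their sum was 331 to 401 in control and 310 to 348 in mimic samples, most of it Olig1 (-0.17, adjusted p = 0.221), with Nkx2-2 too low to test. Of 10 neuron markers, 3 (the glutamate loader Slc17a7, the kinase Camk2a and the neurofilament Nefm) were called lower. DESeq2 called 3 neuron markers, and 8 were at an unadjusted p under 0.05, all of them lower. Their sum was 10450 to 10676 in control and 10044 to 10312 in mimic samples. The 10 inhibitory neuron markers, led by Gad1, summed to 658 to 710 CPM in control and 649 to 676 in mimic samples, with 0 called by edgeR or DESeq2 and 1 at an unadjusted p under 0.05. The 9 radial glia and progenitor markers, 1 of which is also an astrocyte marker, summed to 1976 to 2111 CPM in control and 1926 to 2090 in mimic samples, with 0 of 8 tested called by edgeR or DESeq2, 2 at an unadjusted p under 0.05 and Fabp7 the highest.

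Fibroblast and vascular markers summed to 264 to 399 CPM in control and 409 to 543 CPM in mimic samples, without overlap. Of the 11 tested, 2 had a log2 fold change below 0, and the median was 0.39. By edgeR 1 (Cdh5) was called higher and 1 (Rgs5) lower, and DESeq2 called 5. An unadjusted p under 0.05 was reached by 8, of which 1 was lower. Cldn5 was at 0 in most samples. Dividing cell markers summed to 82.3 to 90.4 CPM in control and 97.5 to 105.9 CPM in mimic samples. Of these 10 markers, 3 (Top2a, Cdk1 and Ccna2) were called higher. DESeq2 called 3, and 9 were at an unadjusted p under 0.05, of which 0 were lower. Mature oligodendrocyte markers summed to 40.0 to 42.5 CPM in control and 40.4 to 45.2 in mimic samples, with 0 of 8 called by edgeR, 1 by DESeq2 and 1 at an unadjusted p under 0.05. Microglial markers summed to 26.5 to 28.7 and 25.6 to 27.3 CPM, with 0 of 10 called by either tool and 2 at an unadjusted p under 0.05. The part of these cell types in the values of the net genes was not tested.

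Annotated neighbours overlapped little with the net genes. Tnr shares 443 of its exon bases, 3.44%, with the antisense gene Gm38039, which had 0 counts in all samples. Tnc shares 176, 2.27%, with 8030451A03Rik on the other strand, which had 82 counts over all samples together. The library kit does not mark strand, so reads in these shared bases cannot be assigned to a strand.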

How the data were processed

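RNA from 5 mimic and 6 control samples was prepared by the authors with an Illumina TruSeq poly(A) kit that does not mark strand. Per the submitters' processing notes, quality was checked with FastQC 0.11.5, reads were mapped to mm10 (GRCm38) with STAR 2.5.2b and counted per Ensembl gene with featureCounts of Subread 1.5.1. The annotation release and the handling of reads that map to several places are not given in the sources used here. The authors deposited raw counts per gene for each sample and 1 table of normalized signal, in which each column equals the counts divided by 1 size factor.

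The filter required 5 counts or more in no fewer than 50% of samples, and the genes that passed it were tested with edgeR 4.0.16 (R 4.3.3; two-sided quasi-likelihood test, robust, TMM scaling, group as the sole term, Benjamini-Hochberg adjustment over all 17365 genes, called at adjusted p under 0.05). Standard errors were derived from the fold change and the F statistic of each gene, and intervals are 95%. The test was also run on simulated counts, and no result of that run is given here. Filter and threshold follow the study, whose tool was DESeq2. The paper gives no design formula for these data.

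Alternatives were other scalings, no or a stricter filter (10 counts in every sample), DESeq2 1.42.0, 1 surrogate variable (sva 3.50.0), a replicate block, limma 3.58.1 on log2 of the normalized signal plus 1, and each sample left out.

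Symbols, positions, exon lengths and 3′ UTRs came from GENCODE M21 (GRCm38), which matched 48349 of 48709 genes. Within groups, pairs of samples differed by more than sampling noise (chi-square per degree of freedom 1.25 to 6.05), so none was counted as a duplicate. Groups came from the sample titles. The net genes and the gene lists around them were chosen with earlier results of these data known. All 10 net genes are named. From each pathway list every called gene (up to 8 by smallest p) and up to 3 uncalled genes with the highest level per length are named, and from marker lists the highest and lowest by level and up to 4 called genes where they bear on the text.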

Additional observations from a re-analysis of the deposited data

Results flagged for a closer look

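Acan in control replicate 6 stood apart from its group at 21.8 CPM, while the other 5 control samples had 24.7 to 26.2 CPM. On the log2 scale its gap to the nearest sample was 0.673 of the whole range of the group. The levels of 10 genes in both groups gave 20 sets of values, of which 1 held such a sample, and chance gives about 1 in 20. Without control replicate 6 the log2 fold change of Acan was -0.033 with an edgeR adjusted p of 0.843.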

How the results depend on the processing

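Over the 9 net genes and 19 alternatives each, 145 of 171 log2 fold changes kept their direction and their side of the threshold. Genes called numbered 495, and 785 without the count filter, 255 with 1 surrogate variable, 328 with the replicate block and 218 (without control replicate 1) to 491 with 1 sample left out. Net genes called, all lower, numbered 2, and 6 without the count filter (Tnr, Hapln4, Bcan, Ncan, Tnc and Ptprz1), 1 (Tnr) with DESeq2, 1 surrogate variable, the replicate block or the authors' normalized table, and 0 (without mimic replicate 2) to 4 (without control replicate 2) with 1 sample left out. Pathway genes called numbered 6, and 11 without the count filter and 2 (without mimic replicate 2) to 10 (without mimic replicate 3) with 1 sample left out. Acan turned to 0.0030 with upper-quartile scaling and 0.0021 with 1 surrogate variable, and ran from -0.053 to 0.030 with 1 sample left out, as Hapln1 did from -0.019 to 0.10. The causes were not tested, but fewer samples are in the fits with 1 left out.

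Replicate numbers did not pair the samples: same-numbered samples had correlations of -0.023 to 0.016 over 5 pairs, other pairs -0.073 to 0.078, and 0 of 10 correlated best with their own number. With the replicate block, which leaves out control replicate 6, Hapln4 had an adjusted p of 0.132 and Tnr of 0.0361. At 1 to 9 reads, depth limits Hapln2.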
